A study of Rattus norvegicus with 6 samples.

Results

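The miR-99 and miR-100 family comprised 6 of the 775 miRNAs in the deposited count table, taken by name as both arms of the hairpins miR-99a, miR-99b and miR-100. The 6 members were rno-miR-99a-5p, rno-miR-99a-3p, rno-miR-99b-5p, rno-miR-99b-3p, rno-miR-100-5p and rno-miR-100-3p, and all 6 were among the 454 miRNAs with enough counts to be tested. The counts came from 6 small RNA libraries of rat brain, 3 from the 2VO group and 3 from the tilianin-treated 2VO group. The rats were male Sprague–Dawley animals aged 7 weeks at purchase, and both groups had undergone 2VO, in which the common carotid arteries on both sides are tied off so that brain blood flow falls chronically. Tilianin is a flavonoid glycoside. It was given by gavage at 40 mg/kg per day for 4 weeks in 0.5% CMC-Na, and the 2VO group received this vehicle at 5 mL/kg. Sham libraries were not analysed here. The labels give the tissue as brain, and the study names the sequenced tissue as cortical. The sources used here do not say whether each library is 1 rat, so p-values measure the spread between these libraries, which may be technical in part.

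A miRNA hairpin is cut into a duplex, and as a rule 1 strand, the guide, is kept in an Argonaute protein while the other, the passenger, is degraded. The guide pairs with target mRNAs mainly through its seed, bases 2 to 8, and lowers their translation and stability. The miR-99 and miR-100 guides come from the 5p arm. They are abundant in brain and are known for repressing components of growth factor signalling, such as Mtor and Igf1r, and the chromatin remodeller Smarca5. In mammals each of the 3 hairpins lies in a cluster with a let-7 and a miR-125 hairpin, and the family shares its ancestry with miR-10, whose genes lie in the Hox clusters.

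Mature sequences were found for 5 of the 6 members in the RefSeq annotation of GRCr8. They are shown because the similarity of the members bears on how reads could be divided between them, and because the seed groups them. Capitals mark the seed.
rno-miR-99b-5p: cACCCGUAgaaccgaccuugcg
rno-miR-100-5p: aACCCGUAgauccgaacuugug
rno-miR-99b-3p: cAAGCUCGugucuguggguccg
rno-miR-99a-3p: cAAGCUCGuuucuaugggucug
rno-miR-100-3p: cAAGCUUGugucuauaggu

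The 5p arms of miR-99b and miR-100 had the same seed. Counted from the 5′ end, miR-100-5p differed from miR-99b-5p over their 22 bases at 4 positions, C1A, A11U, C16A and C21U. The 3p arms of miR-99a and miR-99b also had a seed in common and differed at 3 positions, U10G, A14G and U21C with miR-99a-3p first. The miR-100-3p seed differed from theirs at C7U. In GRCr8, RefSeq places miR-99b-5p at chr1:67350070-67350091, miR-99b-3p at chr1:67350108-67350129, miR-100-5p at chr8:50798307-50798328, miR-100-3p at chr8:50798342-50798360 and miR-99a-3p at chr11:29687441-29687462, all on the plus strand. These positions come from the annotation, since the counts carry none. The miR-99b gene lies within the bounds of Spaca6, the miR-100 gene within those of Mir100hgl and Lnc215, and the miR-99a gene within those of the lncRNA LOC103693508. Their nearest let-7 and miR-125 neighbours are Mirlet7e and Mir125a for miR-99b, Mirlet7a-2 and Mir125b1 for miR-100, and Mirlet7c1 and Mir125b2 for miR-99a.

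Total counts lay between 7175872 and 13198776 per library. Tilianin-treated replicate 2 stood apart across all tested miRNAs, with Spearman correlations of 0.936 to 0.957 with the other libraries, against 0.983 to 0.992 among those. Of the 5 brain markers, miR-124-3p, miR-9a-5p and miR-128-3p were abundant in all 6 libraries, whereas the oligodendrocyte miRNA miR-219a-5p had 1 count over all of them. The summed brain markers were at 124085 to 166501 CPM in 5 libraries and at 75474 CPM in tilianin-treated replicate 2 (CPM, library counts scaled to a common total, here without TMM). Within this list miR-338-3p went the other way, with 44.7 CPM in that library and 18.5 to 34.1 CPM in the others. miR-128-3p, a neuronal miRNA, had 3516 CPM there and 17252 to 29858 CPM in the others. The 4 Hox-cluster markers, of which miR-196b-5p had no count and miR-10a-5p and miR-10b-5p supplied nearly all, summed to values that were at 88.1 to 517 CPM in 5 libraries and at 19598 CPM in this one. Erythroid, leukocyte, muscle and choroid plexus markers were also highest there, at 797, 675, 376 and 971 CPM, against at most 395, 484, 159 and 337 CPM elsewhere, although the erythroid miR-451-5p had at most 4 counts and the muscle miR-1-3p at most 1 in any library. miR-219b and miR-1b, which are not on these lists, were not rare. After TMM scaling they were at 1368 and 1969 CPM in treated replicate 2. In the other libraries miR-219b was at 260 to 768 CPM and miR-1b at 158 to 325 CPM. The family share and the log2 fold changes of the members are therefore given with and without this library. Most other results include it. In bulk tissue, fewer cells of a type and less RNA per cell cannot be told apart.

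The family held between 21.7% and 39.5% of all counts of a library, almost all of it on the 5p arms. Its 2VO libraries had shares of 26.7%, 28.5% and 21.7%. The tilianin-treated libraries, likewise from replicate 1 to 3 by number, had shares of 22.7%, 39.5% and 24.8%. Counting error was small beside these differences, with 95% Wilson intervals of at most ±0.0358 percentage points, which cover counting error only. Replicates 1 and 3 of the treated group lay inside the range of the 2VO libraries, and treated replicate 2 lay above every other library. On average 2VO libraries had 25.7 ± 3.54% (SD, n = 3) and treated libraries 29.0 ± 9.14% (SD, n = 3), a difference of 3.32 percentage points that was smaller than the spread of the treated libraries. Without treated replicate 2 the treated mean was 23.7%, and the difference was -1.92 percentage points. The share of the 3p arms together was between 0.00305% and 0.00456%.

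**Figure D1:**
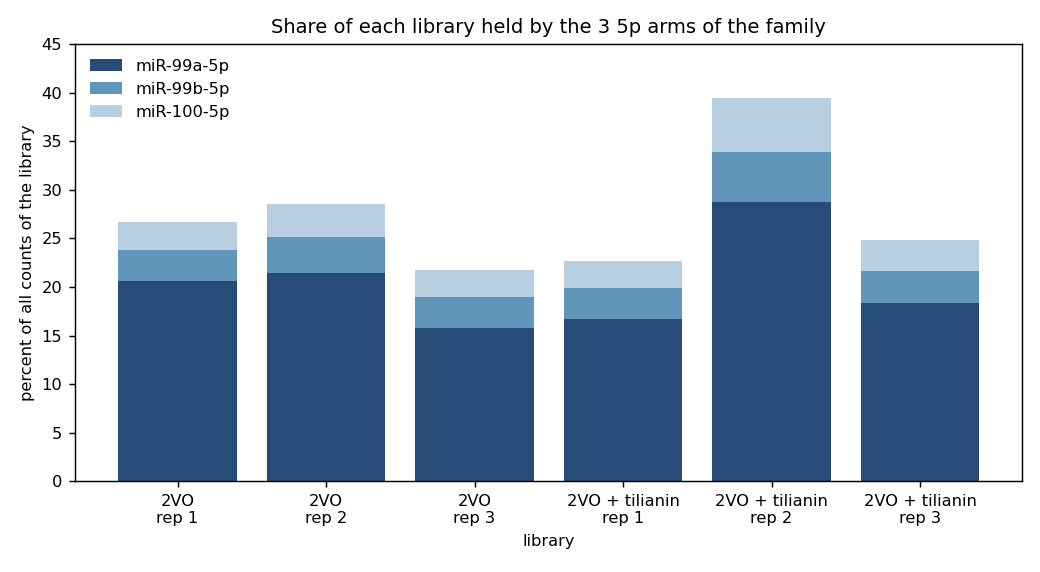
Percent of all counts of each library held by miR-99a-5p, miR-99b-5p and miR-100-5p, as stacked bars, 1 bar per library. The bar of tilianin-treated replicate 2 reaches 39.5%, and the other 5 lie between 21.7% and 28.5%.

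miR-99a-5p, the guide of the miR-99a hairpin, ranked first of all miRNAs by its mean share of the library. It had 1804738, 2828858 and 1173474 counts in the 2VO libraries and 1581425, 2065158 and 1421920 counts in the tilianin-treated libraries. After TMM scaling the 2VO levels were 196672, 218327 and 151820 CPM, and the treated levels 171743, 318045 and 173567 CPM. The groups overlapped, and treated replicate 2 was the single library above the 2VO range. The log2 fold change, tilianin-treated 2VO against 2VO, was 0.23 (standard error 0.278, approximate 95% interval -0.43 to 0.88), with an adjusted p of 0.861 from edgeR's quasi-likelihood test.

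miR-99b-5p, the guide of the Spaca6 hairpin, ranked eighth. It was at 30451, 37637 and 30014 CPM in the 2VO libraries and at 32228, 56121 and 30736 CPM in the treated libraries. Replicates 1 and 3 of the treated group again lay among the 2VO libraries. The log2 fold change of miR-99b-5p came to 0.28 (standard error 0.265, 95% interval -0.34 to 0.90), with an adjusted p of 0.835 from edgeR's quasi-likelihood test.

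miR-100-5p, the guide of the Mir100hgl hairpin, ranked ninth. It was at 27399, 34648 and 26660 CPM in the 2VO libraries and at 29182, 61835 and 29725 CPM in the treated libraries. Of the 5p arms it had the largest log2 fold change, 0.44 (standard error 0.320, 95% interval -0.31 to 1.20), with an unadjusted p of 0.207 and an adjusted p of 0.785 from edgeR's quasi-likelihood test. Its groups overlapped as well. miR-99a-5p and miR-100-5p are known to be nearly identical in sequence, so the counting, which is not described in the sources used here, could divide their reads.

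**Figure D2:**
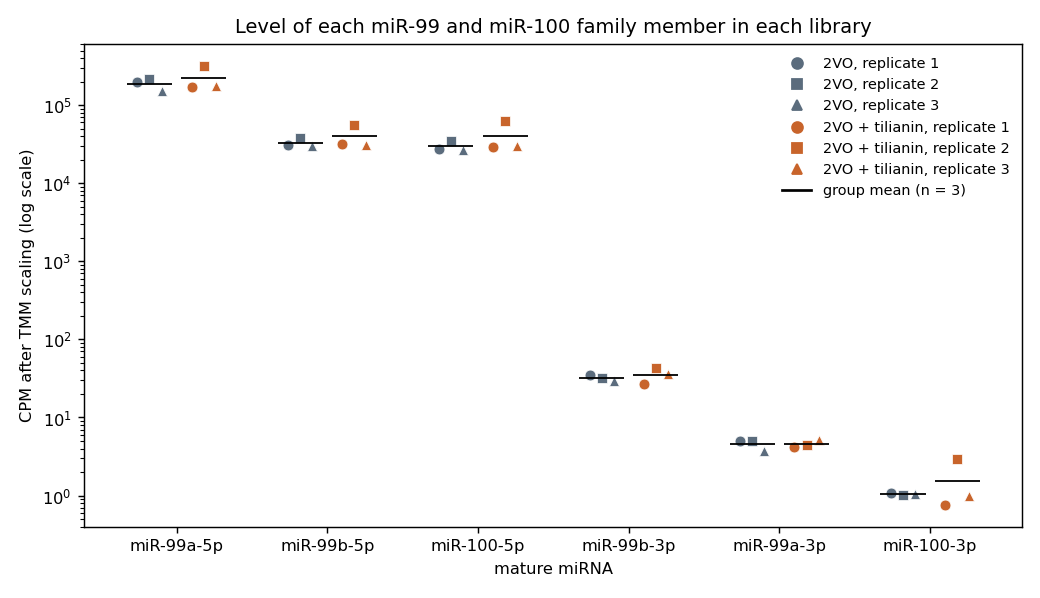
CPM after TMM scaling, on a log axis, of each member in each library, with a line at each group mean. The 5p arms lie between 26660 and 318045 CPM and the 3p arms between 0.760 and 43.0 CPM, and squares of the treated group (replicate 2) are the highest points for 5 of the 6 members.

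The 3p arms, the passenger strands, were rare. miR-99b-3p was the most frequent, with 324, 417 and 227 counts in the 2VO libraries and 244, 279 and 299 counts in the treated libraries, or 29.4 to 35.3 CPM and 26.5 to 43.0 CPM. For this arm the log2 fold change came to 0.13, with a standard error of 0.230. miR-99a-3p had 46, 65 and 29 counts in the 2VO libraries and 38, 29 and 42 counts in the treated libraries, or 3.75 to 5.02 CPM and 4.13 to 5.13 CPM, and its log2 fold change was -0.01, with a standard error of 0.262. It was the single member that was not highest in treated replicate 2. miR-100-3p had 10, 13 and 8 counts in the 2VO libraries and 7, 19 and 8 counts in the treated libraries, and its log2 fold change was 0.54, with a standard error of 0.578. The 95% interval ran from -0.83 to 1.90 and so included both 0 and a log2 fold change of 1. Its width reflects the spread between libraries as well as the low counts. The adjusted p of these 3 arms was 0.849 to 0.982 by edgeR's quasi-likelihood test.

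The study's criterion was a p-value that is not adjusted and lies under 0.05, together with a log2 fold change beyond 1 in either direction. By edgeR's quasi-likelihood test 0 of the 6 members met it, against 5.73% of all tested miRNAs (21 higher and 5 lower after treatment). None had an unadjusted p below 0.05, with or without treated replicate 2, and with all libraries 33 of the 454 tested miRNAs had. The CPM ranges of the groups overlapped for all 6 members, and they did not overlap for 9.69% of all tested miRNAs. With only 6 members, counts of 0 do not set the family apart from the 5.73% or the 9.69%. The log2 fold change was positive for 5 of the 6 members, with a median of 0.25, against 46.7% positive and a median of -0.03 over all tested miRNAs. Without treated replicate 2 it was positive for 2 of the 6, with a median of -0.03, against 51.9% and 0.00963 over all. The values of the single members then were -0.12 for miR-99a-5p, -0.04 for miR-99b-5p, 0.00709 for miR-100-5p, 0.00893 for miR-99a-3p, -0.027 for miR-99b-3p and -0.25 for miR-100-3p.

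**Figure D3:**
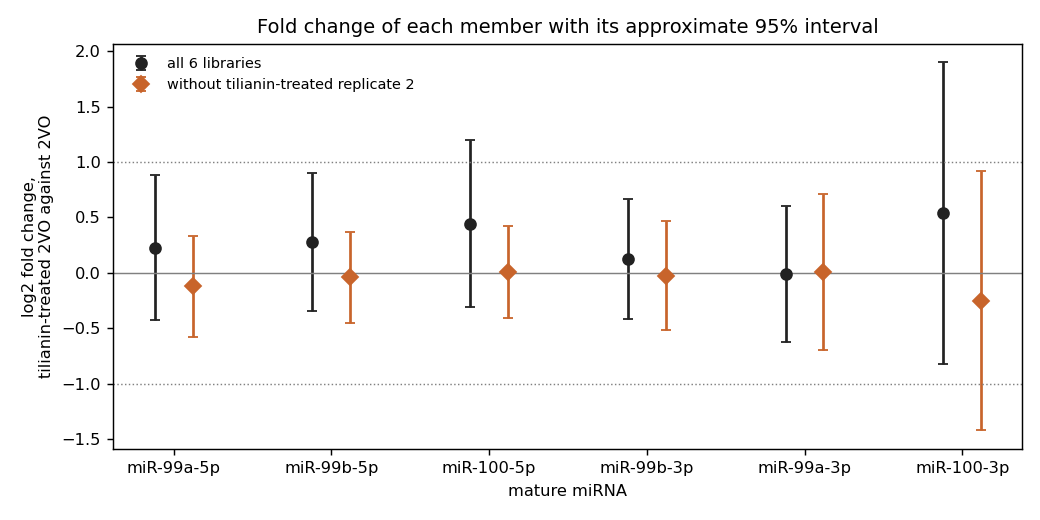
Log2 fold change of each member, tilianin-treated 2VO against 2VO, from edgeR's quasi-likelihood test, with approximate 95% intervals, for all 6 libraries and without tilianin-treated replicate 2. Dotted lines mark an absolute log2 fold change of 1. All intervals include 0, and the 5p arms move from between 0.23 and 0.44 to between -0.12 and 0.00709 without that library.

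In tilianin-treated replicate 2 the 5p arms stood above all other libraries together. miR-99a-5p was there at 1.74 times the mean of the other 5 libraries, miR-99b-5p at 1.74 times and miR-100-5p at 2.09 times. Against the highest of the other libraries these values were 1.46, 1.49 and 1.78 times. miR-99b-3p was at 1.34 times the mean of the other libraries and miR-100-3p, on 19 counts, at 3.01 times, whereas miR-99a-3p was at 0.969 times. Being highest in this library was common, with 33.0% of all tested miRNAs, and 33.3% were lowest in it. The 162 miRNAs with a mean of at least 100 CPM include the 5p arms. Of the 162, 14.8% were at 1.7 times the mean of the other libraries or more. This cut lies just below the lowest value of the 5p arms, so the share is a description. The summed brain markers were lowest and the Hox-cluster, erythroid, leukocyte, muscle and choroid plexus markers highest in the same library, as was miR-338-3p of the brain list, and their part in the level of the family was not tested.

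Over all libraries the members kept their proportions more closely than their levels, a contrast that rested mainly on treated replicate 2. Without that library miR-99b-5p lay between 30014 and 37637 CPM and miR-100-5p between 26660 and 34648 CPM. These spreads were similar to those of the ratios of miR-99a-5p to them, 5.06 to 6.46 and 5.69 to 7.18. miR-99a-5p itself still spread more, from 151820 to 218327 CPM. Among the 5p counts of the family, miR-99a-5p held 77.3%, 75.1% and 72.8% in the 2VO libraries and 73.7%, 72.9% and 74.2% in the treated libraries. miR-99b-5p held 12.0% to 14.4% and miR-100-5p held 10.8% to 14.2%. The ratio of miR-99a-5p to miR-99b-5p was 6.46, 5.80 and 5.06 in the 2VO libraries and 5.33, 5.67 and 5.65 in the treated libraries, so treated replicate 2, where both were highest, lay inside the range of the others. The ratio of miR-99a-5p to miR-100-5p was 7.18, 6.30 and 5.69 in the 2VO libraries and 5.89, 5.14 and 5.84 in the treated libraries. The ratio of miR-100-5p to miR-99b-5p was 0.900, 0.921 and 0.888 in the 2VO libraries and 0.906, 1.10 and 0.967 in the treated libraries. Treated replicate 2 was the single library with more miR-100-5p than miR-99b-5p. None of the 3 ratios differed between the groups beyond the spread of the libraries, with p = 0.7, 0.3 and 0.2 in two-sided exact permutation tests on the log2 ratio and adjusted p of 0.7, 0.45 and 0.45 over the 3 pairs. With 3 libraries against 3 the smallest p such a test can give is 0.1.

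By mean CPM over the 6 libraries the order of the members was miR-99a-5p, miR-99b-5p, miR-100-5p, miR-99b-3p, miR-99a-3p and miR-100-3p. Reads were assumed to be full-length, and their lengths were not examined. The sequences found had 22 bases, except for miR-100-3p with 19. CPM was therefore compared between members directly, although ligation in library preparation is known to favour some ends. The first step was 5.64-fold (5.06 to 6.46 over the libraries), and the step from the 5p to the 3p arms, from miR-100-5p to miR-99b-3p, was 996-fold (776 to 1439). miR-99b-3p exceeded miR-99a-3p by 7.33-fold, and miR-99a-3p exceeded miR-100-3p by 3.92-fold (1.53 to 5.43). Each of these steps had the same direction in 6 of 6 libraries. miR-99b-5p and miR-100-5p were close, with a ratio of 1.06 (0.908 to 1.13) and the same direction in 5 of 6 libraries. The order is given as a description without p-values, since the neighbouring pairs were chosen by their mean levels in these same libraries.

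The arms of the 3 hairpins were used very unequally. There were 39233, 43521 and 40465 miR-99a-5p reads for each miR-99a-3p read in the 2VO libraries, and 41616, 71212 and 33855 in the treated libraries. For miR-100 the ratio was 25142, 34533 and 25758 in the 2VO libraries and 38388, 21132 and 30439 in the treated libraries. For miR-99b it was 862, 1169 and 1022 in the 2VO libraries and 1216, 1306 and 842 in the treated libraries, so that in every library its 3p arm made up more of the reads of its hairpin than the 3p arms of the other two did. As a share of both arms, the 3p arm of miR-99b was 0.0765% to 0.119%, that of miR-99a 0.00140% to 0.00295% and that of miR-100 0.00260% to 0.00473%. The exact 95% binomial intervals of miR-99a and miR-100 were wide, from 0.000940% to 0.00202% for miR-99a in treated replicate 2 and from 0.00105% to 0.00537% for miR-100 in treated replicate 1, and overlapped those of miR-99b in no library. The log2 arm ratio differed between the groups by 0.18 for miR-99a, 0.13 for miR-99b and 0.05 for miR-100, with p = 0.8, 0.6 and 1 in two-sided exact permutation tests and adjusted p of 1 for each.

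Against the rest of the table, the 3 hairpins were among those with a dominant 5p arm. Of 139 hairpins listed with a 5p and a 3p miRNA of the same name and at least 1000 counts in total, 71 had more 5p than 3p counts. The median share of the minor arm was 1.19%. By this share, from the lowest, miR-99a stood at place 13 with 0.00229%, miR-100 at place 15 with 0.00357% and miR-99b at place 29 with 0.0935%. A minor arm that is listed at 0 counts was included, so the lowest places are limits set by depth.

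Of the 12 listed let-7 and miR-125 partners from the same clusters, 3 were highest and 4 were lowest in tilianin-treated replicate 2. These shares, 25.0% and 33.3%, were near those over all tested miRNAs, 33.0% and 33.3%. None of the 12 was called in the comparison of the groups, against 5.73% of all tested miRNAs. Their median log2 fold change was -0.04, and their smallest adjusted p was 0.746 by edgeR's quasi-likelihood test. miR-125b-5p, which comes from the miR-99a and miR-100 clusters alike, was at 62662 to 68917 CPM in the 2VO group and at 76473, 46333 and 60263 CPM in the treated libraries. miR-125a-5p, the partner of miR-99b, was at 40520 to 50095 CPM in the 2VO group and at 60149, 31436 and 38075 CPM in the treated libraries. Both were lowest in treated replicate 2, at 0.699 and 0.667 times the mean of the other libraries. The let-7 guides of these clusters were nearer to it, with let-7c-5p at 1.06, let-7e-5p at 0.875 and let-7a-5p at 1.13 times that mean. The 3 partners that were highest there were let-7a-5p, let-7a-1-3p at 1.23 times and let-7a-2-3p, of the miR-100 cluster, at 2.60 times the mean of the other libraries on 19 counts. let-7a-5p, let-7c-5p and miR-125b-5p are also made from other hairpins, and let-7a-1-3p cannot be told apart from let-7c-2-3p, whose counts are identical.

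Expressed as ratios, which do not depend on the scaling, miR-99b-5p was at 0.752, 0.751 and 0.641 times the counts of miR-125a-5p in the 2VO libraries and at 0.536, 1.79 and 0.807 times in the treated libraries. The ratio of miR-99a-5p to miR-125b-5p was 3.12, 3.17 and 2.42 in the 2VO libraries and 2.25, 6.86 and 2.88 in the treated libraries. That of miR-100-5p to miR-125b-5p was 0.435, 0.503 and 0.425 and then 0.382, 1.33 and 0.493. In treated replicate 2 each of these ratios was above all other libraries, and in treated replicate 1 each was below them. Against let-7 the ratios spread less, with miR-99a-5p at 28.0 to 36.3 times let-7c-5p in 5 libraries and 52.0 times in treated replicate 2, miR-99b-5p at 31.6 to 40.6 and 68.4 times let-7e-5p, and miR-100-5p at 6.30 to 8.51 and 13.7 times let-7a-5p. These ratios are a description and were not tested.

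**Figure D4:**
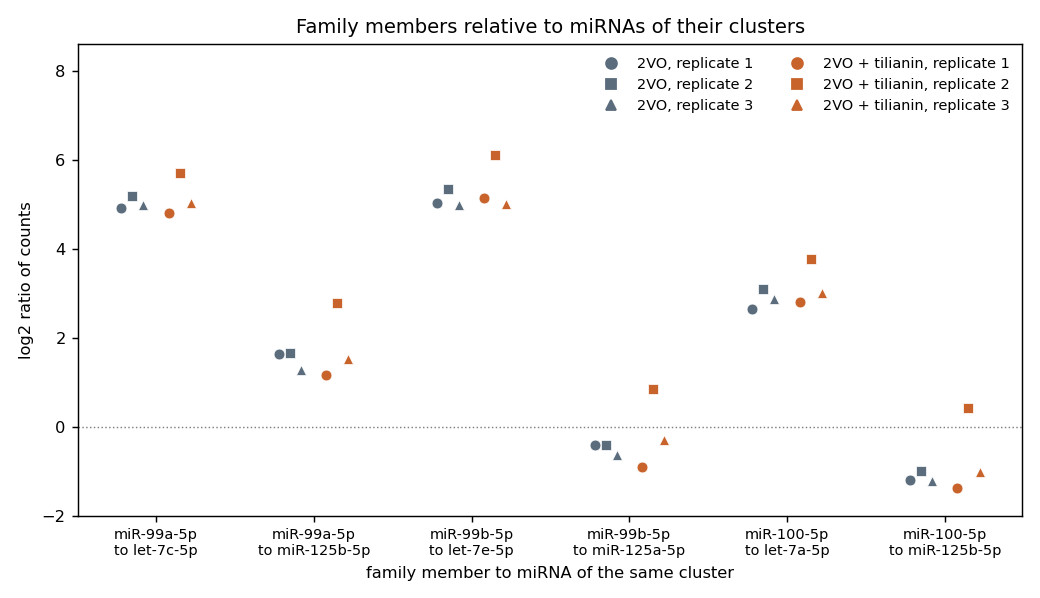
Log2 ratio of the counts of each 5p member to those of the let-7 and miR-125 miRNAs of its cluster, 1 point per library. In each of the 6 ratios the square of the tilianin-treated group (replicate 2) is the highest point, for example 0.84 for miR-99b-5p to miR-125a-5p, where the other libraries lie between -0.90 and -0.31.

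The miR-10 relatives moved far more in that library. Over 11 bases in a row miR-10a-5p and miR-100-5p are identical, beginning at base 7 of the former and base 6 of the latter. They are shown with the seed in capitals to set the shared stretch beside the seeds, which are not the same. The sequences also differ outside the seed.
rno-miR-10a-5p: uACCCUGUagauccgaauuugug
rno-miR-100-5p: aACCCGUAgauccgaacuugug

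miR-10a-5p was at 47.4, 37.2 and 65.6 CPM in the 2VO libraries and at 162, 11292 and 297 CPM in the treated libraries, or 92.6 times the mean of the other libraries in treated replicate 2, where miR-100-5p was at 2.09 times. miR-10b-5p was at 91.2 times there. All 4 arms of miR-10a and miR-10b were called higher in the treated group, where 5.73% of all tested miRNAs were called in either direction. Unadjusted p was 0.00817 to 0.0293 and adjusted p 0.637 for each from edgeR's quasi-likelihood test. miR-10b-3p had 3, 4 and 8 counts in the 2VO libraries and 7, 467 and 3 counts in the treated libraries. miR-10a-3p had 1, 0 and 2 counts and then 4, 99 and 5, so both 3p arms rested mainly on treated replicate 2. miR-10a-5p had 73322 counts in treated replicate 2 and miR-100-5p 401515, against 435 to 2435 and 206064 to 448934 counts in the other libraries. Without this library the median log2 fold change of the 4 arms was 1.75.

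The profiles most like those of the 5p arms belonged in part to other members. Likeness was measured as the root mean square difference between log2 CPM values centred on each miRNA's own mean over the 6 libraries, among the members and 159 other miRNAs with a mean of at least 100 CPM. miR-15b-5p was the closest non-member to all 3, at 0.111 from miR-99a-5p, 0.141 from miR-99b-5p and 0.115 from miR-100-5p. The next for miR-99a-5p were miR-192-5p (0.136) and miR-194-5p (0.145), for miR-99b-5p miR-362-5p (0.148) and let-7d-3p (0.150), and for miR-100-5p miR-362-5p (0.187) and miR-194-5p (0.193). The members were at 0.109 (miR-99a-5p and miR-99b-5p), 0.107 (miR-99b-5p and miR-100-5p) and 0.147 (miR-99a-5p and miR-100-5p) from each other, and the median over the other miRNAs was 0.462 to 0.546. miR-15b-5p was at 103 to 164 CPM in 5 libraries and at 263 CPM in treated replicate 2, where miR-99a-5p, miR-99b-5p and miR-100-5p were highest too. It was picked by its likeness over these same libraries, so this shared peak is not a separate result.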

How the data were processed

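Small RNA libraries of 3 2VO and 3 tilianin-treated 2VO samples were grouped by their titles, and count columns were matched by library code. The authors deposited unnormalized read counts per mature miRNA for 775 miRNAs. The submitters' processing notes name FastQC 0.11.2, Trimmomatic 0.36, cutadapt 1.14 and DESeq2 1.12.4, and the aligner, miRNA reference and genome build are not given in the sources used here. Here the 454 miRNAs whose counts over all libraries reached 10 were scaled with TMM. The groups were compared in edgeR 4.0.16 (R 4.3.3) by its quasi-likelihood test with Benjamini-Hochberg adjustment and no covariate. A standard error is the log2 fold change divided by the square root of F, and gave the approximate 95% interval. Ratios within a library were compared between the groups with exact permutation tests (scipy 1.17.1). Named miRNAs are the members, the let-7 and miR-125 partners of their clusters, miR-10, listed cell type markers and the 3 closest profiles per 5p arm (prior count 2). Mesenchymal markers summed to 2.12 to 8.14 CPM and the liver marker miR-122-5p to 0.557 to 23.2 CPM. The members and lists were chosen with earlier results of these data known. On simulated counts with a log2 change of 2 for this comparison, 96.9% of 195 changed miRNAs among 446 were called. The simulation gave every miRNA the same fixed dispersion and held no library that stood apart. Smaller changes were not simulated, so this share is not the sensitivity of the comparison in these data. Molecular identifiers are not mentioned, and the Wilson and binomial intervals treat each read as a separate count. Those intervals cover counting error only, whereas the approximate 95% interval of a log2 fold change also covers spread between libraries. Alternatives were other scalings, including one without the members, the Wald test of DESeq2 1.42.0, limma-voom (limma 3.58.1), other filters, the replicate number as a block and leaving out each library.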

Additional observations from a re-analysis of the deposited data

How the results depend on the processing

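At the study's criterion, the miRNAs called higher in the treated group numbered 6 by limma-voom and 9 under the replicate block. Dropping 1 library gave 7 (2VO replicate 2 dropped) to 29 (treated replicate 1 dropped). They were 8 and 9 without 2VO replicates 1 and 3, and 9 without treated replicate 2. Those called lower numbered 8 when scaled to library totals, 3 by limma-voom, 3 by the Wald test of DESeq2, 2 under filterByExpr, and 2 (2VO replicate 2 dropped) to 5 when 1 library was dropped. With an adjusted p under 0.05 there were 3 by DESeq2's Wald test, and 0 to 4 (without treated replicate 2) with a library left out. In these alternatives no member and no cluster partner was called. miR-100-3p did not pass filterByExpr and has no value there.

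Over the fits that each lack 1 library, log2 fold changes ranged from -0.12 to 0.40 for miR-99a-5p, -0.14 to 0.0872 for miR-99a-3p, -0.041 to 0.44 for miR-99b-5p, -0.027 to 0.32 for miR-99b-3p, 0.00709 to 0.66 for miR-100-5p and -0.25 to 0.90 for miR-100-3p. The lowest values were those without treated replicate 2, except for miR-99a-3p (without 2VO replicate 3). miR-99a-3p also turned positive with DESeq2's size factors (0.00114), with scaling that left out the members (0.00431) and with filterByExpr (0.00447). The other 5 members kept their sign in the alternatives that used all libraries, among them library totals, in which miR-99a-5p was at 0.14, and the replicate block, in which miR-100-5p was at 0.36. The replicate numbers did not pair the libraries, with correlations of deviations from the group means of -0.0891, 0.0134 and 0.192 for numbers 1, 2 and 3. The difference in family share ranged from -1.92 to 6.47 percentage points. In another version the denominator was the tested miRNAs without the 10 most abundant non-members. The mean share was then 51.2% in the 2VO group and 54.7% in the treated group. That difference, 3.45 percentage points, stands on a larger base than the main one and is relatively smaller. The differences in log2 arm ratio ranged from -0.13 to 0.41 for miR-99a, 0.0027 (without treated replicate 2) to 0.32 (without treated replicate 3) for miR-99b and -0.15 to 0.28 for miR-100, and the difference in the log2 ratio of miR-99a-5p to miR-99b-5p from -0.14 to 0.0339. For all of these values the cause was not tested. The depth limits the 3p arms of miR-99a and miR-100, which had 7 to 65 counts per library.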

Other observations

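RefSeq lists further miRNA genes within 60000 bp of the family's hairpins in GRCr8, and their counts were low. miR-3588, whose gene lies near the miR-99a hairpin, was at 11.8, 13.5 and 14.0 CPM in the 2VO libraries. In the treated libraries it was at 17.2, 7.85 and 9.77 CPM. Like miR-125b-5p it was lowest in treated replicate 2 and highest in treated replicate 1. miR-3596c, whose gene lies near miR-99b, was at 0.770 to 1.83 CPM, and miR-3596a, near miR-100, at 1.10 to 3.36 CPM. How the authors' counting would treat any overlap of such genes with the cluster hairpins is not given in the sources used here.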
